A study of Mus musculus with 7 samples.

Results

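The 37 genes described here encode the machinery of autophagy in the mouse, and they were taken as a fixed list of gene symbols matched to the Ensembl identifiers of the count table. All 37 symbols were found among the 55414 identifiers, and 36 of them carried enough counts to be tested. The transcriptomes came from Paneth cells (PCs), purified with a cell sorter from the small intestine of C57BL/6J mice 15 h after an injection of either PBS or tumour necrosis factor (TNF). The PBS group comprised 3 libraries and the TNF group 4, each made from the total RNA of its own mouse. No mutant allele, transgene or Cre is named for either group, and both groups share the strain, the sorting and the 15 h interval. The sources used here state neither the dose of TNF, nor the age and sex of the mice, nor the gate of the sort. The comparison asks how the autophagy genes of PCs stood 15 h after systemic TNF.

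In autophagy, a double membrane grows around cytoplasm, organelles or microbes and the closed vesicle then fuses with a lysosome. The ULK1 kinase complex starts the process, a lipid kinase complex around Beclin 1 marks the site, lipid carriers feed the membrane, and a pair of ubiquitin-like conjugation reactions attach ATG8 proteins (LC3s and GABARAPs) to it. Cargo receptors such as p62 bind both the cargo and the ATG8 proteins. PCs are secretory cells of the crypt base that release lysozyme and defensins, and autophagy genes such as *Atg16l1*, *Atg5* and *Atg7* are known to be needed for the normal packaging of their granules.

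A gene was called when its adjusted p fell under 0.05 in edgeR's quasi-likelihood test across all 14329 genes tested, with Benjamini-Hochberg adjustment, and every adjusted p below comes from that fit. Levels are counts per 1000000 counts of the TMM-scaled library size (CPM), and fold changes are TNF over PBS on the log2 scale with their standard error. The TNF response was broad, since 59.6% of all genes tested were called, 29.5% higher and 30.1% lower after TNF. Of the 36 autophagy genes tested, 27 (75%) were called, 18 of them (50%) higher and 9 (25%) lower, and 9 were not called. The 3 PBS and 4 TNF libraries did not overlap in 24 of the 36 genes (66.7%), with TNF above PBS in 15 and below it in 9, while 4 called genes overlapped (*Wipi1*, *Gabarap*, *Gabarapl2* and *Tfeb*). The same held for 60.7% of all genes, 29.9% above and 30.9% below. Changes of at least 2-fold were called upward in 7 autophagy genes and downward in 5, against 14.4% and 17.2% of all genes. The median log2 fold change was 0.25 over the 36 genes and 0.0017 over all genes. Without each library in turn, between 15 and 18 members were called higher and 8 or 9 lower. Scaling by total counts alone gave 13 higher and 9 lower, with medians of 0.0795 over the members and -0.16 over all genes. With the replicate number as a block, 13 were called higher and 8 lower.

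**Figure D1:**
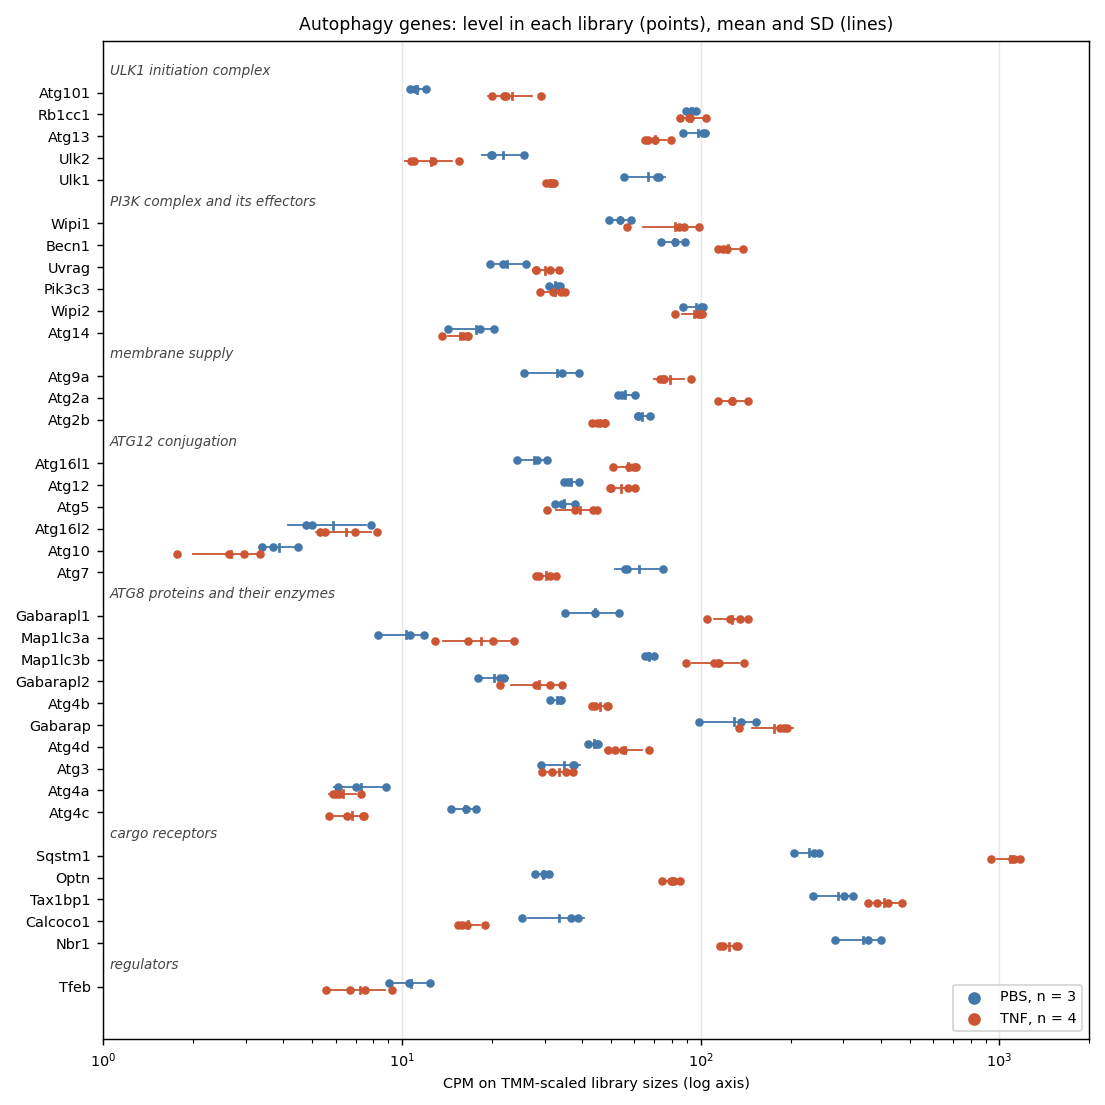
Level of each of the 36 autophagy genes tested, in CPM on TMM-scaled library sizes (log axis), grouped by role. Points are libraries (PBS blue, n = 3, TNF red, n = 4), the vertical tick is the group mean and the horizontal line spans 1 SD on either side. *Sqstm1* lay between 935 and 1176 CPM in the TNF libraries and between 205 and 248 CPM in the PBS libraries, while *Nbr1* went the other way.

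Some facts of the whole set touch every value below. Total counts ran from 15511455 to 19193721 a library, and no pair of libraries within a group was close enough to be the same library sequenced again. The summed level of 10 PC markers overlapped between PBS (187365 to 311620 CPM) and TNF (187653 to 346713 CPM), so the labelled cell type was present in all 7 libraries. Of these 10, *Nupr1* (5.63-fold), *Pla2g2a* (3.72-fold), *Defa22* (3.39-fold) and *Mmp7* (1.84-fold) were called higher and *Habp2* lower (2.40-fold). PBS 3 and TNF 1 held the lowest PC marker sums of their groups. The sums of markers of stem cells (3597 to 4925 CPM in PBS, 2035 to 2798 CPM in TNF, 7 of 8 lower), enterocytes (1241 to 1616 and 243 to 340.0 CPM, 6 of 8 tested lower and 1, *Slc5a1*, higher), goblet cells (7601 to 14347 and 6853 to 7455 CPM, 5 of 8 lower and 1, *Spdef*, higher) and tuft cells (1635 to 2700 and 328 to 841 CPM, 9 of 9 lower) were lower after TNF without overlap. Of the goblet markers, *Agr2* and *Muc2*, the largest by mean CPM (5367 in PBS and 5870 in TNF), were not called. Enteroendocrine markers overlapped (30.2 to 102 CPM in PBS and 59.1 to 90.1 CPM in TNF) with 1 of 9 tested higher, *Tac1* (1.71 to 41.1 CPM on average), and 3 lower, *Chgb*, *Neurog3* and *Sct*. Leukocyte markers overlapped too (24.8 to 32.0 and 19.1 to 28.6 CPM, with *Cd3e* and *Nkg7* at 0), with 1 of 4 tested lower, *Ptprc*, and 1 higher, *S100a9*, which had 0 counts in PBS and 3.21 to 7.85 CPM in TNF. The sum of stromal and endothelial markers was low but apart, at 2.39 to 2.72 CPM in PBS and 8.19 to 10.02 CPM in TNF, with *Col1a2* at 0 and *Vwf*, the member that was tested, called higher (3.71-fold). Erythroid markers reached at most 0.236 CPM, with 4 globin genes at 0. The part that these other cell types play in the autophagy values was not tested, and in bulk RNA fewer cells of a type and less RNA per cell cannot be told apart.

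Of the 5 cargo receptor genes, 3 were called higher and 2 lower, and the groups were apart in each, in a set where 59.6% of all genes were called and 60.7% were apart. *Sqstm1* encodes p62, which links ubiquitinated cargo to LC3 and is itself degraded by autophagy (ENSMUSG00000015837, chromosome 11, 50089572 to 50107684, minus strand, GRCm39). It stood at 248, 239.8 and 205 CPM in the PBS libraries and at 935, 1176, 1104 and 1119 CPM in the TNF libraries. Every TNF library was far above every PBS library, and the rise was 4.69-fold (log2 2.23 ± 0.14, adjusted p = 1.28e-08). *Nbr1*, a relative of p62 with the same kind of ubiquitin-binding and LC3-binding regions, lies on the same chromosome (ENSMUSG00000017119, 101442962 to 101472781, plus strand, GRCm39). Its level was 402, 363 and 282 CPM after PBS and 116, 118, 133 and 131 CPM after TNF. The direction was the opposite of that of *Sqstm1* in every library, and the fall was 2.81-fold (log2 -1.49 ± 0.12, adjusted p = 2.58e-07).

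The counts of these 2 receptors within a library give a ratio that no scaling of the libraries can move. The log2 ratio of *Sqstm1* to *Nbr1* counts was -0.70, -0.60 and -0.46 in the PBS libraries, where *Nbr1* had more counts, and 3.02, 3.31, 3.06 and 3.09 in the TNF libraries, where *Sqstm1* had more. The mean ratio shifted by 3.71, which is 13.0-fold (exact permutation test over 35 assignments of the group labels, two-sided p = 0.0286, the smallest this design allows, and 0.0484 after Benjamini-Hochberg adjustment over 22 pairs of related genes). Per kilobase of the canonical transcript, *Nbr1* went from 74.6 to 26.6 CPM per kb and *Sqstm1* from 70.7 to 332 CPM per kb. *Nbr1* thus moved from the 2nd to the 9th level among the 37 genes and *Sqstm1* from the 4th to the 1st. *Mrnip* overlaps 17.2% of the exon bases of *Sqstm1* on the other strand and stood at 1.85 CPM in PBS and 0.401 CPM in TNF, both far under *Sqstm1*.

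*Optn* encodes optineurin, a receptor for damaged mitochondria and intracellular bacteria (ENSMUSG00000026672, chromosome 2, 5022703 to 5068945, minus strand). Its levels were 27.9, 31.1 and 29.9 CPM after PBS and 74.4, 84.9, 79.4 and 81.2 CPM after TNF. Both groups were tight and well apart, with a rise of 2.696-fold (log2 1.43 ± 0.10, adjusted p = 6.19e-08). *Tax1bp1*, a receptor that also takes part in limiting TNF signalling, rose less, from 302, 322 and 238 CPM to 364, 389, 422 and 471 CPM (log2 0.52 ± 0.13, adjusted p = 0.00386). The *Tax1bp1* call was lost with the replicate number as a block (adjusted p = 0.0510). *Calcoco1*, a relative of *Tax1bp1* that acts as a receptor for the endoplasmic reticulum, fell from 38.8, 36.6 and 25.3 CPM to 15.4, 15.9, 19.0 and 16.5 CPM (log2 -1.01 ± 0.15, adjusted p = 7.29e-05). The 2 relatives therefore moved apart, and the log2 ratio of *Tax1bp1* to *Calcoco1* counts went from a mean of 3.11 ± 0.14 (SD, n = 3) to 4.62 ± 0.15 (SD, n = 4; exact permutation p = 0.0286, adjusted 0.0484).

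Promoter windows were read to show the sequences from which the most contrasting members are transcribed. RefSeq windows of 300 bases (250 before and 50 after the start of transcription, GRCm38.p6) were matched for 31 of the 37 genes, 37 windows in all. Of each printed window 260 bases are given, ending 10 bases after the start. *Sqstm1* (chr11:50210811-50211070, minus strand) is shown because it rose most, *Nbr1* (chr11:101552404-101552663, plus strand, the downstream of its 2 RefSeq starts) because it fell most, and *Atg101* (chr15:101284051-101284310, plus strand) because it rose while other ULK1 complex genes fell. These 3 were chosen after their values were seen. Capitals mark the match of GGGNNTTCC in *Atg101*, and the *Sqstm1* and *Nbr1* windows held none of the motifs searched.
Sqstm1: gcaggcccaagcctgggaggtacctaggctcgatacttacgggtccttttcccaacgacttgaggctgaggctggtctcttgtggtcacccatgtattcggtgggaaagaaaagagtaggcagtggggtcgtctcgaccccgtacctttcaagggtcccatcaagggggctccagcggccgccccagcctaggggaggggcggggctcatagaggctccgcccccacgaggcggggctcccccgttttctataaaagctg
Nbr1: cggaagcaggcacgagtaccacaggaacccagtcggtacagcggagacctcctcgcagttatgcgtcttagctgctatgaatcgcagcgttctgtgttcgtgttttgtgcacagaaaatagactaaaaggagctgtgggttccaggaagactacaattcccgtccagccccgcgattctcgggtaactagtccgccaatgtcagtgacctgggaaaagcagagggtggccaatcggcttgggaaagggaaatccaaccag
Atg101: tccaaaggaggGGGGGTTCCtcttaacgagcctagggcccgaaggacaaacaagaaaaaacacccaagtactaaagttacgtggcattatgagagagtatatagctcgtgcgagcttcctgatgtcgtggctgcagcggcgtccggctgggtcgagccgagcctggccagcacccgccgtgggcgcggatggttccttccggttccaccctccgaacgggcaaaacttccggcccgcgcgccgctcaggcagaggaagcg

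Motifs were searched on both strands of each 300-base window. The kB-type sequence GGGNNTTCC, a form bound by NF-kB, occurred in 4 of the 37 member windows (10.8%), those of *Atg101*, *Atg16l2*, *Atg4b* and *Gabarapl2*. It occurred in 5.82% of the 32851 windows of all genes. Longer forms of the NF-kB site were not searched. The E-box CACGTG, bound by TFEB and its relatives, occurred in 10.8% of member windows (*Atg3*, *Atg5*, *Atg7* and *Atg14*) and in 7.15% of all windows. TGACNNNGC, the core of the antioxidant response element, was in 4 windows (10.8%, against 12.4% of all), those of *Atg13*, *Map1lc3b*, *Tax1bp1* and *Ulk2*, and the AP-1 sequence TGANTCA was in 0 of 37, against 7.81% of all. These matches are letters found in a window, and no binding was measured.

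Of the 5 ULK1 complex genes, 3 fell, 1 rose and 1 was not called, where 30.1% of all genes fell and 29.5% rose. *Ulk1*, the kinase that starts autophagy and is held in check by mTORC1 (ENSMUSG00000029512, chromosome 5, 110931496 to 110957995, minus strand), stood at 71.3, 72.2 and 55.5 CPM after PBS and at 31.7, 30.3, 31.3 and 32.3 CPM after TNF. The 4 TNF libraries were nearly level and all under the PBS libraries, 2.11-fold lower on average (log2 -1.08 ± 0.11, adjusted p = 2.40e-06). *Ulk2*, its close relative, fell from 19.8, 25.6 and 19.9 CPM to 15.6, 10.7, 10.98 and 12.7 CPM (log2 -0.80 ± 0.17, adjusted p = 9.07e-04). The ratio of *Ulk1* to *Ulk2* counts overlapped between the groups, with a log2 shift of -0.26 (exact permutation p = 0.286). *Atg13*, the adaptor that binds both kinases, fell from 104, 102 and 87.4 CPM to 65.3, 79.3, 66.3 and 70.3 CPM (log2 -0.47 ± 0.11, adjusted p = 0.00167). *Arhgap1* covers 32.8% of the *Atg13* exon bases on the other strand and was at 91.8 CPM in PBS and 88.3 CPM in TNF, as high as *Atg13* itself, so the reads of the pair may be mixed if strand was not used in counting.

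*Atg101* encodes the partner that stabilises ATG13, and it was the member of the complex that rose. Its level was 10.6, 12.0 and 11.03 CPM in PBS and 19.98, 22.3, 21.95 and 29.1 CPM in TNF, 2.08-fold higher with no overlap (log2 1.054 ± 0.16, adjusted p = 5.84e-05). *Rb1cc1*, which encodes the scaffold FIP200, lay at 96.1, 89.2 and 93.6 CPM and at 91.8, 85.0, 91.7 and 104 CPM. These ranges overlapped, and the 95% interval of its log2 change ran from -0.21 to 0.22 (adjusted p = 0.986).

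Of 6 genes of the lipid kinase complex and its effectors, 3 (50%) were called, each of them higher, against 59.6% of all genes called and 29.5% higher. *Becn1* (Beclin 1), the regulatory subunit shared by both forms of the complex, rose from 88.3, 81.9 and 73.8 CPM to 119, 139, 114 and 122 CPM (log2 0.60 ± 0.11, adjusted p = 2.66e-04). *Uvrag*, the subunit of the form that acts on endosomes, was at 21.8, 19.8 and 26.0 CPM and then at 33.5, 28.0, 28.0 and 31.2 CPM (log2 0.42 ± 0.13, adjusted p = 0.0135). The *Uvrag* call was lost without PBS 2 (0.34, adjusted p = 0.0748) and with scaling by total counts alone (0.25, 0.302). It was also lost with the replicate number as a block. *Wipi1*, which reads the lipid mark on the growing membrane, went from 58.3, 53.5 and 49.2 CPM to 56.8, 84.4, 88.1 and 98.3 CPM (log2 0.61 ± 0.16, adjusted p = 0.00487). TNF 1 lay within the PBS range for *Wipi1* and the other 3 TNF libraries lay above it.

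The catalytic subunit and the autophagy-specific subunit of the complex were not called. *Pik3c3* (VPS34) ranged from 31.0 to 33.9 CPM in PBS and from 28.9 to 35.1 CPM in TNF, and the 95% interval of its log2 change was -0.25 to 0.24. *Atg14*, which directs the complex to autophagy, ranged from 14.3 to 20.3 and from 13.6 to 16.6 CPM (interval -0.51 to 0.16). *Wipi2*, the relative of *Wipi1* that recruits ATG16L1, ranged from 87.1 to 102 and from 82.2 to 101 CPM (interval -0.25 to 0.21). Groups overlapped for these 3 genes, and each interval excluded a 2-fold change. *Cntd1* covers 43.8% of the *Becn1* exon bases on the other strand but was at 0.940 CPM in PBS and 0.258 CPM in TNF, far under *Becn1*.

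Of the 3 genes of membrane supply, 2 were called higher and 1 lower (all genes 29.5% and 30.1%). *Atg2a*, a lipid transfer protein that feeds the growing membrane, rose from 60.4, 54.6 and 52.9 CPM to 114, 143, 127 and 127 CPM (log2 1.19 ± 0.11, adjusted p = 5.73e-07). Its close relative *Atg2b* fell from 61.4, 61.8 and 67.6 CPM to 48.0, 47.3, 43.2 and 45.0 CPM (log2 -0.47 ± 0.10, adjusted p = 8.97e-04). The log2 ratio of *Atg2a* to *Atg2b* counts was therefore -0.02, -0.18 and -0.35 in PBS and 1.25, 1.60, 1.55 and 1.496 in TNF, a shift of 3.16-fold (exact permutation p = 0.0286, adjusted 0.0484). *Atg9a*, the membrane scramblase carried on small vesicles, rose from 39.2, 34.2 and 25.6 CPM to 75.2, 92.7, 72.8 and 74.7 CPM (log2 1.26 ± 0.15, adjusted p = 5.86e-06). Exons of *Ankzf1* on the other strand cover 12.7% of *Atg9a* exon bases, and *Ankzf1* fell from 18.4 to 8.14 CPM. Those of *Gm29253* on the same strand cover 25.2%, and *Gm29253* stood at 0 CPM in PBS and 0.0164 CPM in TNF.

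**Figure D2:**
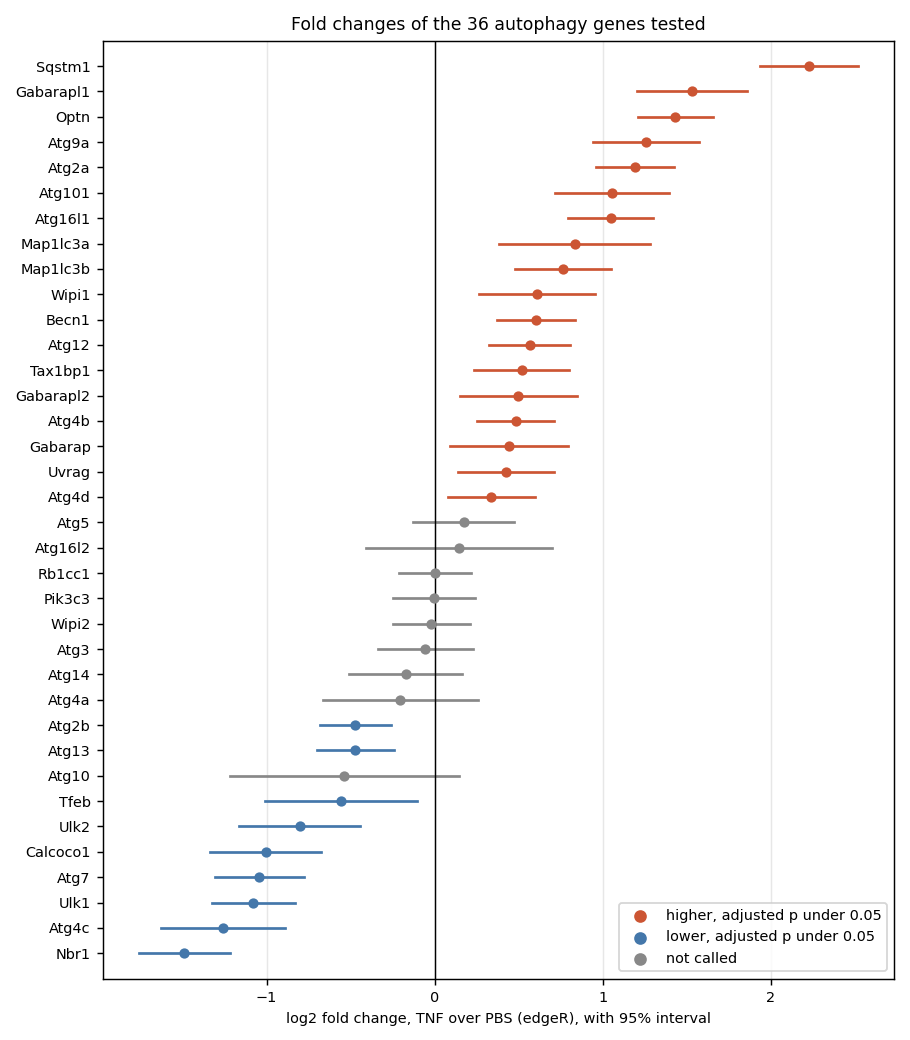
Log2 fold change of TNF over PBS for the 36 autophagy genes tested, in order of size, with 95% intervals from the edgeR fit (3 PBS and 4 TNF libraries). Red points were called higher, blue points lower and grey points were not called. The values ran from -1.49 for *Nbr1* to 2.23 for *Sqstm1*, and 18 genes were called higher and 9 lower.

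The ATG12 conjugation genes gave 2 rises and 1 fall among 6 (33.3% and 16.7%, against 29.5% and 30.1% of all genes). *Atg16l1*, which sets the place where LC3 is attached to lipid (ENSMUSG00000026289, chromosome 1, 87683592 to 87720150, plus strand), stood at 24.2, 28.2 and 30.5 CPM after PBS and at 59.5, 60.6, 51.0 and 57.5 CPM after TNF. The groups were well apart and the rise was 2.07-fold (log2 1.047 ± 0.12, adjusted p = 4.29e-06). *Atg12*, the ubiquitin-like protein joined to ATG5, rose from 39.1, 34.9 and 36.01 CPM to 49.8, 56.9, 50.2 and 60.3 CPM (log2 0.57 ± 0.11, adjusted p = 5.82e-04). *Atg7*, the activating enzyme of both conjugation reactions, fell from 74.6, 56.7 and 55.6 CPM to 31.3, 32.7, 28.2 and 28.8 CPM, 2.06-fold lower (log2 -1.04 ± 0.12, adjusted p = 7.12e-06). The activating enzyme and the scaffold thus changed in opposite directions, each without overlap between groups.

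*Atg5*, the protein to which ATG12 is joined, was not called, at 32.5 to 37.9 CPM in PBS and 30.5 to 44.9 CPM in TNF (interval of the log2 change -0.13 to 0.47). *Atg10*, the enzyme that carries ATG12 to ATG5, was low at 3.40, 4.48 and 3.71 CPM in PBS and 2.63, 2.95, 1.77 and 3.34 CPM in TNF. All TNF libraries lay under all PBS libraries for *Atg10*, but the change was not called (log2 -0.54 ± 0.32, interval -1.22 to 0.14, adjusted p = 0.160), and at these counts a 2-fold fall was within the interval. *Atg16l2*, a relative of *Atg16l1* that is not essential for autophagy, was likewise low at 4.76 to 7.85 and 5.30 to 8.23 CPM (interval -0.41 to 0.70). The log2 ratio of *Atg16l1* to *Atg16l2* counts rose from 2.27 ± 0.28 (SD, n = 3) to 3.16 ± 0.24 (SD, n = 4; exact permutation p = 0.0286, adjusted 0.0484).

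The 5 ATG8 genes were called higher, beside 29.5% of all genes, and the calls of *Gabarap* and *Gabarapl2* were lost under some alternatives. *Gabarapl1* (ENSMUSG00000030161, chromosome 6, 129509725 to 129520544, plus strand) rose most, from 53.3, 44.2 and 34.998 CPM to 105, 136, 126 and 144 CPM, which is 2.89-fold (log2 1.53 ± 0.15, adjusted p = 1.51e-06). *Map1lc3b* (LC3B), the form usually followed as a marker of autophagosomes, rose from 69.5, 65.0 and 66.7 CPM to 89.4, 115, 111 and 140.0 CPM (log2 0.76 ± 0.13, adjusted p = 2.14e-04). *Map1lc3a* (LC3A) rose from 10.6, 11.9 and 8.33 CPM to 12.9, 20.2, 16.6 and 23.6 CPM (log2 0.83 ± 0.21, adjusted p = 0.00343). In these 3 genes no TNF library reached down into the PBS range.

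The calls of the other two ATG8 genes were less firm. *Gabarap* was at 154, 136 and 98.6 CPM in PBS and at 135, 195, 184 and 189.9 CPM in TNF (log2 0.44 ± 0.16, adjusted p = 0.0309). TNF 1 lay within the PBS range, and the call was lost without PBS 2 (0.48, adjusted p = 0.0537), PBS 3 (0.28, 0.125), TNF 2 (0.39, 0.0787), TNF 3 (0.41, 0.0671) or TNF 4 (0.40, 0.0677), and with total-count scaling (0.29, 0.0562). *Gabarapl2* went from 22.004, 21.2 and 17.9 CPM to 21.2, 28.1, 31.4 and 34.4 CPM (log2 0.50 ± 0.16, adjusted p = 0.0168), again with TNF 1 inside the PBS range. Its call was lost without PBS 3 (0.41, adjusted p = 0.0686), TNF 3 (0.44, 0.0530) or TNF 4 (0.39, 0.0579), and with total-count scaling (0.32, 0.0966). The *Gabarap* and *Gabarapl2* calls were also lost with the replicate number as a block.

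Within the ATG8 family the composition shifted towards *Gabarapl1*. Counted per kilobase of the canonical transcript, the 5 genes summed to 220.5, 201 and 171 CPM per kb in the PBS libraries and to 263, 355, 337 and 393 CPM per kb in the TNF libraries (means 198 ± 25.1 and 337 ± 54.9, exact permutation p = 0.0571). Every TNF library was above every PBS library. *Gabarapl1* made up 13.3%, 12.1% and 11.3% of this sum in PBS and 21.9%, 21.0%, 20.5% and 20.1% in TNF. *Gabarap*, the close relative of *Gabarapl1*, went from 39.5%, 38.3% and 32.7% to 29.1%, 31.0%, 31.0% and 27.4%. Both shifts separated the groups with the smallest exact p that the design allows (0.0286), which was 0.0714 after adjustment over the 5 shares. The share of *Map1lc3b* was 38.5% ± 4.66 (SD, n = 3) and 38.0% ± 1.60 (SD, n = 4), that of *Map1lc3a* 6.31% and 6.54%, and that of *Gabarapl2* 6.12% and 5.03% (exact permutation p = 0.886, 0.686 and 0.0571). The shares depend on the length used. With the length of all annotated exons, the mean share in PBS and TNF was 9.94% and 10.1% for *Map1lc3b* and 63.0% and 52.7% for *Gabarap*. In counts, which need no length, the *Gabarap* to *Gabarapl1* log2 ratio fell from 1.53, 1.62 and 1.49 to 0.37, 0.52, 0.55 and 0.40 (exact permutation p = 0.0286, adjusted 0.0484). The *Gabarap* to *Gabarapl2* ratio shifted by -0.03 on the log2 scale (p = 0.8 in the same permutation test).

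**Figure D3:**
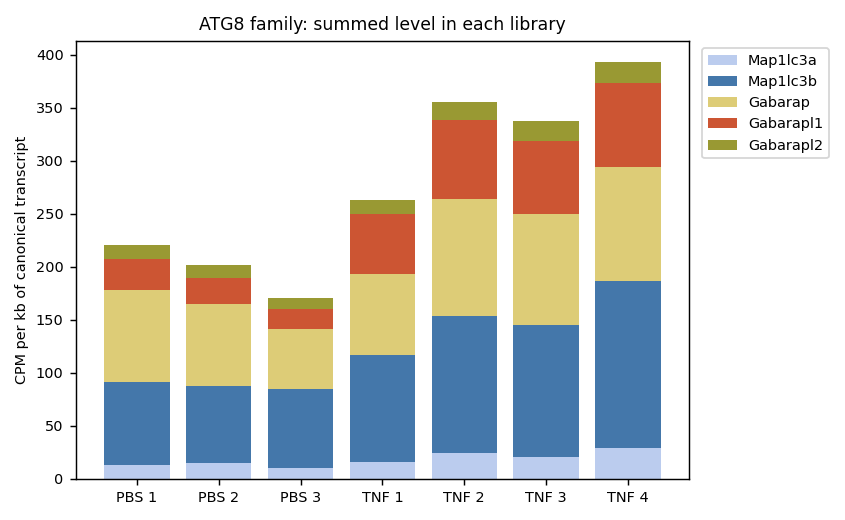
Summed level of the 5 ATG8 genes in each of the 7 libraries, in CPM per kb of canonical transcript, with each gene as a coloured segment of a bar that starts at 0. The sum ran from 171 to 220.5 in PBS and from 263 to 393 in TNF, and the *Gabarapl1* segment made up 11.3% to 13.3% and 20.1% to 21.9% of it.

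Of the 5 enzymes that trim and attach ATG8 proteins, 2 were called higher, 1 lower and 2 were not called. Of all genes, 59.6% were called, 29.5% higher and 30.1% lower. *Atg4c*, a protease of the ATG4 family that cuts ATG8 proteins (ENSMUSG00000028550, chromosome 4, 99082118 to 99171179, plus strand), fell from 17.7, 14.6 and 16.4 CPM to 7.39, 7.49, 6.53 and 5.69 CPM, 2.39-fold lower (log2 -1.26 ± 0.17, adjusted p = 2.39e-05). *Atg4b*, the most active protease of the family, rose from 31.2, 34.0 and 33.9 CPM to 44.2, 48.6, 43.2 and 48.8 CPM (log2 0.48 ± 0.11, adjusted p = 0.00138), a call that was lost with scaling by total counts alone (0.31, adjusted p = 0.103). The log2 ratio of *Atg4b* to *Atg4c* counts shifted by 1.75, from 1.03 ± 0.20 (SD, n = 3) to 2.77 ± 0.22 (SD, n = 4; exact permutation p = 0.0286, adjusted 0.0484). *Atg4d* rose slightly, from 42.0, 44.7 and 45.3 CPM to 51.5, 67.0, 49.1 and 55.0 CPM (log2 0.34 ± 0.12, adjusted p = 0.0263), but the call was lost without PBS 1 (0.31, 0.0819), PBS 2 (0.35, 0.0594) or TNF 2 (0.24, 0.0826), and with total-count scaling (0.16, 0.411). The *Atg4d* call was also lost with the replicate number as a block. *Kri1* covers 30.2% of *Atg4d* exon bases on the other strand and was at 17.1 and 17.2 CPM. *Atg4a*, the X-linked relative, was not called at 6.11 to 8.84 and 5.88 to 7.31 CPM (interval -0.67 to 0.26). Neither was *Atg3*, the enzyme that transfers ATG8 proteins to lipid, at 29.2 to 37.6 and 29.3 to 37.4 CPM (interval -0.34 to 0.23). Exons of *Slc35a5* on the other strand cover 10.8% of *Atg3* exon bases, and *Slc35a5* fell from 27.4 to 13.1 CPM.

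Over all 22 pairs of related members within 8 families, the ratio of counts separated the groups in 15 pairs, and 13 had an adjusted exact p under 0.05. The share over other pairs of genes was not computed, and 60.7% of all genes tested were apart between the groups by themselves. Pairs share genes, so the 22 are not independent of each other. The 13 all had the smallest exact permutation p of the design, 0.0286. Their shared adjusted p of 0.0484 does not rank the shifts, which ran from 1.44-fold to 13.0-fold. The ratios that stayed within the spread between libraries included *Ulk1* over *Ulk2*, *Map1lc3a* over *Map1lc3b* and *Gabarap* over *Gabarapl2*. The largest shifts were those of *Sqstm1* over *Nbr1* (3.71), *Atg4b* over *Atg4c* (1.75), *Atg2a* over *Atg2b* (1.66), *Atg4c* over *Atg4d* (-1.59) and *Tax1bp1* over *Calcoco1* (1.51).

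**Figure D4:**
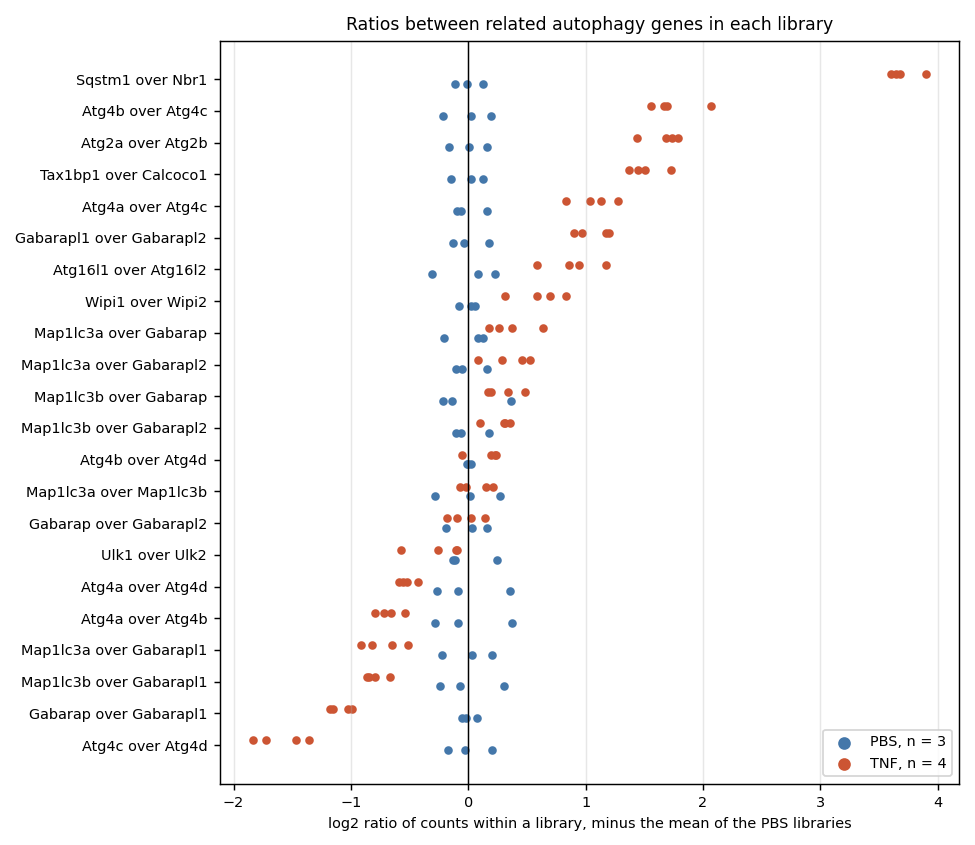
Log2 ratio of the counts of related autophagy genes in each library, minus the mean of the PBS libraries, for 22 pairs (PBS blue, n = 3, TNF red, n = 4). In 15 pairs the TNF points do not overlap the PBS points, and *Sqstm1* over *Nbr1* lies farthest out, with a mean shift of 3.71.

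Both listed regulators were low in these cells. *Tfeb*, the transcription factor that switches on lysosomal and autophagy genes, stood at 12.4, 9.06 and 10.6 CPM in PBS and 7.4996, 9.25, 5.57 and 6.67 CPM in TNF (log2 -0.56 ± 0.21, adjusted p = 0.0350). TNF 2 lay within the PBS range, and the call was lost without PBS 1 (-0.43, 0.159), PBS 3 (-0.57, 0.0623), TNF 3 (-0.46, 0.0872) or TNF 4 (-0.53, 0.0649). The *Tfeb* call was also lost with the replicate number as a block. *Lrrk2*, a kinase linked to lysosomes and to Crohn's disease, had 3 counts in the PBS libraries together and 1 in the TNF libraries together. It was left out of the test, and no difference was detectable at this depth.

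Levels between genes can be compared only per length. By CPM per kb of the canonical transcript, the highest levels in PBS were those of *Map1lc3b* (75.4), *Nbr1* (74.6), *Gabarap* (73.4), *Sqstm1* (70.7) and *Tax1bp1* (61.0), of which the first 4 differed by less than the SD of *Sqstm1*, *Nbr1* or *Gabarap* between libraries. *Wipi1* followed at 25.9 and *Gabarapl1* at 24.3. In TNF the order was *Sqstm1* (332), *Map1lc3b* (128), *Gabarap* (99.7), *Tax1bp1* (87.3) and *Gabarapl1* (70.1). *Lrrk2*, *Atg16l2* and *Atg10* were at the bottom in PBS, at 0.00599, 0.869 and 2.10 CPM per kb. With the length of all annotated exons in place of the canonical transcript, *Sqstm1* was still the highest in TNF, but *Map1lc3b*, whose annotated exons are much longer than its canonical transcript, was the 11th in PBS.

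Other genes of the pathway were followed in 5 lists of 71 genes, of which 67 were tested, 22 were called higher and 21 lower (64.2% called, against 59.6% of all genes). Of 14 further ATG genes tested, 6 rose and 4 fell (42.9% and 28.6%, median log2 0.38). *Wdr45b*, a relative of the WIPI proteins, rose from 34.5 ± 1.98 to 108 ± 8.33 CPM (log2 1.65 ± 0.11, adjusted p = 2.24e-08), and *Vmp1*, a scramblase of the endoplasmic reticulum, rose by 0.88 ± 0.12. *Rubcn* (Rubicon), which restrains the Beclin 1 complex, fell from 39.5 ± 2.84 to 7.08 ± 2.54 CPM (log2 -2.47 ± 0.22, adjusted p = 8.27e-07). *Epg5*, a tether in fusion with the lysosome, fell from 49.0 ± 4.24 to 17.9 ± 1.81 CPM (log2 -1.45 ± 0.12). Errors here are SDs over 3 PBS and 4 TNF libraries for levels and standard errors for log2 changes.

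Of 13 genes tested for the fusion of autophagosomes with lysosomes, 7 rose and 3 fell (53.8% and 23.1%, against 29.5% and 30.1% of all genes, median 0.38). The SNARE genes *Vamp8* (log2 1.15 ± 0.14) and *Ykt6* (1.04 ± 0.10) rose, while *Stx17*, the syntaxin of the completed autophagosome, fell from 103 ± 7.71 to 26.7 ± 5.46 CPM (-1.95 ± 0.14, adjusted p = 8.79e-08) and *Tecpr1* fell by 1.17 on the log2 scale. Of 13 further selective receptors and their regulators tested, 2 rose and 3 fell (15.4% and 23.1%, median -0.17). *Tbk1*, the kinase that phosphorylates optineurin and p62, rose from 36.4 ± 2.701 to 106 ± 9.08 CPM (1.54 ± 0.11, adjusted p = 5.79e-08) and *Bnip3l*, a mitochondrial receptor, by 0.55 ± 0.12. The ferritin receptor *Ncoa4* (-1.10 ± 0.12) and the endoplasmic reticulum receptor *Sec62* (-1.01 ± 0.14) fell.

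Of 18 genes of mTORC1 and AMPK control tested, 5 rose and 7 fell (27.8% and 38.9%, against 29.5% and 30.1% of all genes, median -0.24). *Prkab1*, an AMPK subunit, rose from 27.4 ± 2.04 to 109 ± 7.76 CPM (2.00 ± 0.11, adjusted p = 4.62e-09), and *Ddit4* (REDD1), an inhibitor of mTORC1, rose by 1.12 ± 0.11. *Sesn3*, another inhibitor of mTORC1, fell by 1.85 on the log2 scale, and *Deptor*, an mTOR-binding inhibitor, by 1.11. Of 9 tested genes around the MiT/TFE and FOXO factors, 2 rose and 4 fell (22.2% and 44.4%, median -0.24). *Tfe3*, the relative of *Tfeb*, rose from 24.5 ± 2.04 to 44.5 ± 6.17 CPM (0.86 ± 0.13, adjusted p = 6.98e-05), and *Fnip2* rose by 0.35 ± 0.12. *Foxo4* fell from 47.4 ± 5.36 to 10.97 ± 0.905 CPM (-2.11 ± 0.13, adjusted p = 1.24e-08) and *Zkscan3*, described as a repressor of autophagy genes, by 1.00 ± 0.22. Without PBS 1, PBS 2, TNF 1 or TNF 3, 1 gene of this last list was called higher in place of 2.

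**Figure D5:**
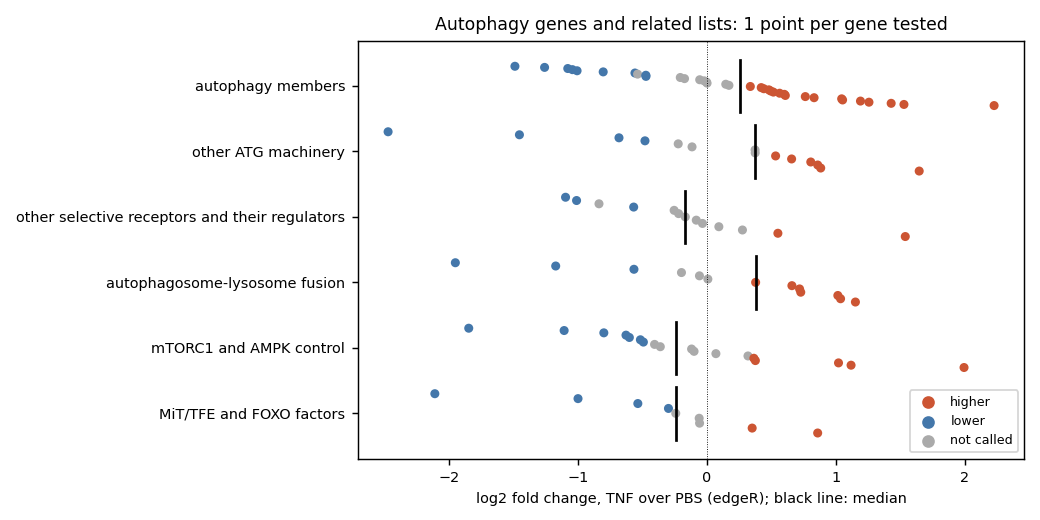
Log2 fold change of TNF over PBS for the 36 autophagy genes tested (top row) and for the genes tested in 5 related lists, with 1 point per gene and a black line at the median. Red points were called higher, blue points lower and grey points were not called. The medians were 0.25 for the autophagy genes and, from top to bottom of the related lists, 0.38, -0.17, 0.38, -0.24 and -0.24.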

How the data were processed

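Total RNA of sorted PCs was sequenced as single-end reads, 3 PBS and 4 TNF mice with 1 library each. The deposited values are raw counts per Ensembl gene, made by the authors; their processing notes name FastQC, Trimmomatic 0.39, STAR 2.7.10a, DESeq2 and the builds mm10 and mm39. No source used here names the counting program, the annotation or whether strand was used, so that overlapping and antisense genes may share counts.

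From these counts, genes with enough reads (filterByExpr, 14329 genes) were fitted in edgeR 4.0.16 (R 4.3.3) with TMM scaling and a robust quasi-likelihood fit, tested two-sided and adjusted by Benjamini-Hochberg over all genes tested. All 37 members were named, and from each related list at most 2 rises and 2 falls. Ratios and shares were tested by exact permutation over 35 splits, two-sided. Coordinates are from GENCODE M39 (GRCm39) and promoters from RefSeq (GRCm38.p6). Alternatives were other scalings, filters, DESeq2 1.42.0, a replicate block and leaving out each library. Members and lists were chosen with earlier results of these data known. An edgeR p-value here sets the difference between the groups against the spread between these mice, moderated across genes. A permutation p-value ranks the observed split among the 35 splits.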

Additional observations from a re-analysis of the deposited data

Results flagged for a closer look

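Among the 36 values looked at in the 4 TNF libraries, 2 held a library whose gap to its nearest neighbour, divided by the range of the group, exceeded Dixon's 95% critical value for 4 values. Chance alone gives such a gap in about 1 in 20 groups. *Atg9a* was highest in TNF 2 at 92.7 CPM, against 72.8 to 75.2 CPM in the other 3 TNF libraries (ratio 0.879). *Gabarap* was lowest in TNF 1 at 134.7 CPM, against 184 to 195 CPM in the others (ratio 0.830). TNF 1 also held the lowest PC marker sum of its group, 187653 CPM, and its part in the *Gabarap* value was not tested. Without TNF 1, *Gabarap* was still called, and without TNF 2, *Atg9a* was still called.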

How the results depend on the processing

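Of the 27 called members, 20 kept their call and sign under all 14 alternatives, 0 changed sign, and 7 lost the call under at least 1 (*Uvrag*, *Gabarap*, *Gabarapl2*, *Atg4b*, *Atg4d*, *Tax1bp1* and *Tfeb*), while 0 uncalled members became called. The number of called genes in all, 8543, ranged from 7131 to 9080. Scaling by total counts alone moved the median of all genes by about as much as that of the members, from 0.0017 to -0.16 against 0.25 to 0.0795. It gave 13 members higher and 9 lower, and 3142 of all genes higher and 4614 lower against 4229 and 4314. Under it *Uvrag* (log2 0.25), *Gabarap* (0.29), *Gabarapl2* (0.32), *Atg4b* (0.31) and *Atg4d* (0.16) were not called. Of the related lists, the receptors then had 5 genes lower in place of 3, mTORC1 and AMPK control 3 higher in place of 5, and the MiT/TFE and FOXO list 1 higher in place of 2.

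The replicate numbers are not stated to pair the mice, and TNF 4 has no partner. Deviations of libraries with the same number had correlations of -0.268, -0.0305 and -0.158. Those with different numbers ran from -0.184 to 0.321. With so few libraries, these values cannot show whether the mice were paired. With the number as a replicate block and TNF 4 in a block of its own, 13 members were called higher and 8 lower of 7131 genes called in all (median log2 0.29), and *Tax1bp1* (0.46, adjusted p = 0.0510) was lost together with *Uvrag*, *Gabarap*, *Gabarapl2*, *Atg4d* and *Tfeb*.

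Some uncalled genes near 0 changed sign. *Rb1cc1* was at -0.00135 with DESeq2 size factors, -0.17 with total counts, -0.0032 with the 1 CPM filter, -0.0552 with the replicate block, -0.0037 in the DESeq2 Wald test and between -0.0669 and 0.0474 without a library. *Atg5* was at -0.0040 and *Atg16l2* at -0.0300 with total counts. Without a library, *Pik3c3* ranged from -0.0432 to 0.0538, *Wipi2* from -0.0934 to 0.0426 and *Atg3* from -0.17 to 0.0090. For the count ratios, the exact test cannot go under 0.0667 without a PBS library or 0.1 without a TNF library, so leaving out a library gives no test of them. With the length of all annotated exons, an alternative added after seeing the data, the *Gabarapl1* share of the ATG8 sum rose by 10.2 percentage points, from 13.2% to 23.4%, in place of 8.66. Depth limits *Atg10*, *Atg16l2* and *Lrrk2* most.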
